A study of Mus musculus with 12 samples.

Results

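The mRNAs of 52 translation initiation and elongation factors, with the enzymes that act on them, were followed in mouse liver and in c-MYC-driven liver tumors. They were all rows of the deposited table whose gene symbol begins with Eif or Eef and a digit, except the Eif4a, Eif4e and Eif4g genes of the cap-binding complex and the X- and Y-linked genes of the third eIF2 subunit. The table lists 17007 genes, and all 52 factors passed the filter on low values that left 14397 genes for testing. There were 12 libraries in 4 groups of 3.

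Normal livers were from wild-type C57BL/6 mice. The other 3 groups carried c-MYC/MCL1/RictorKO Tsc2KO hepatocellular carcinoma (HCC), raised by hydrodynamic injection, in which plasmids are pushed with a large volume of fluid into the tail vein and taken up by hepatocytes. The c-MYC transgene was driven by the EF1α promoter and the Cre recombinase by a CMV promoter, in C57BL/6J mice whose *Tsc2* and *Rictor* genes were floxed. By the labels, vehicle, MLN0128 at 1 mg/kg/day or everolimus at 1 mg/kg/day was given by mouth for 3 weeks, on 6 days a week. Dosing began 6 days after the plasmids, and tissue was taken 3.7 weeks after them. The results text of the paper instead gives 3 days of treatment for the sequenced tumors, so the length of exposure is not certain. Loss of *Rictor*, loss of *Tsc2* and both oncogenes were therefore shared by all 3 tumor groups, and normal liver differed from them in genotype, injection and gavage at once. MLN0128 inhibits the mTOR kinase in both of its complexes, whereas everolimus, a rapamycin analog, acts on mTORC1.

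Protein synthesis starts when eIF1, eIF1A, eIF3 and eIF5 help the small ribosomal subunit to find a start codon with the initiator tRNA that eIF2 carries as a complex with GTP. The exchange factor eIF2B reloads eIF2, and 4 stress-activated kinases block that step by phosphorylating eIF2α, which lowers overall translation but raises that of ATF4. In elongation, eEF1A brings each aminoacyl-tRNA to the ribosome, the eEF1B subunits reload eEF1A, eEF2 moves the ribosome along, and the kinase eEF2K switches eEF2 off. mTORC1 acts on this machinery at several points, among them eIF4B, eEF2K and the translation of mRNAs that begin with a terminal oligopyrimidine (TOP) stretch, many of which encode elongation factors and some eIF3 subunits.

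MYC binds DNA with its partner MAX at the letters CACGTG, which read the same on both strands. Promoter windows of RefSeq, from 250 bases before to 50 bases after an annotated start in GRCm38.p6, were found for 41 of the 52 factors. The letters were present for 10 of these 41 genes (24.4%) and for 11.8% of the 10217 tested genes with a window, and in 12 of 49 windows of the factors against 7.15% of all 32851 windows of this length. They were present for 7 of the 29 factors with a window that were higher in vehicle-treated tumors (24.1%) and for 3 of the 10 that were not called (30%). The following 30-base stretches show the motif in capitals for the eEF2 kinase, for eIF3 and eIF5A genes that were higher in tumors, and for *Eef2* and *Eif1b*, which were not called.
Eef2k, chr7:120842788-120842817, plus strand: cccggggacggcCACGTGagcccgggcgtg
Eif3a, chr19:60790654-60790683, minus strand: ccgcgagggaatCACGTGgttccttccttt
Eif3k, chr7:28981915-28981944, minus strand: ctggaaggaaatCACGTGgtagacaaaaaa
Eif5a, chr11:69921443-69921472, minus strand: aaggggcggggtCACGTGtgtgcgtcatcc
Eef2, chr10:81176576-81176605, plus strand: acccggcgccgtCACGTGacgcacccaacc
Eif1b, chr9:120492570-120492599, plus strand: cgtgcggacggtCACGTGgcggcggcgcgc

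A second motif, the TGATGNAA core through which ATF4 acts on amino acid response genes, was searched on both strands. It was present for 1 of the 41 factors (2.44%), *Eef2k*, and for 2.86% of the tested genes with a window. A TOP start was sought as a transcript that begins with C followed by at least 4 bases that are C or T, among the protein-coding transcripts of GENCODE M21 on GRCm38. Of the 9 factors listed as TOP mRNAs, 3 had such a transcript (33.3%), as had 3 of the other 43 factors (6.98%) and 5.88% of the 12218 tested genes with a coding transcript. The first 30 bases of the *Eef1d* and *Eif3f* transcripts follow, with the pyrimidine stretch in capitals. An annotated start need not be the one used in liver.
Eef1d, chr15:75909277-75909306, minus strand: CTCTCCTTTgcagtcctgagctcgcagttc
Eif3f, chr7:108934417-108934446, plus strand: CTCTTTCTCggcaagatggcttctccggcc

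All levels are FPKM, that is, fragments per length and library size, and can be set side by side between genes. They rested on 17161231 to 25178035 reads per library, and for a gene of 2 kb a count of 3 reads equals 0.0496 to 0.144 FPKM. Beyond total reads, the deposited values held a scaling factor of 0.585 to 0.595 in normal liver and 1.10 to 1.37 in tumors. The direction of some tumor changes depends on this scaling. Among them are called ones, such as *Paip1* at a log2 difference of -1.07, or 0.073 with the FPKM sums made equal. *Tsc2* stood at 4.5 to 5.32 FPKM in normal liver, 2.01 to 2.31 under vehicle, 2.81 to 3.96 under MLN0128 and 2.78 to 2.87 under everolimus, and *Rictor* at 1.65 to 2.57, 1.05 to 1.5, 1.65 to 2.21 and 1.58 to 1.93, as whole-gene values that do not isolate the floxed exons. Summed over 6 hepatocyte markers, the level was 81410 to 100500 FPKM in normal liver against 1968 to 8300 in tumors. For 4 markers of liver tumor and fetal liver the sum was 2.52 to 4.42 FPKM in normal liver against 3204 to 8095 in tumors. Most of that tumor sum was *H19* (3010 to 7530 FPKM). *Afp* set the tumor arms apart, since each vehicle library held at least 1350 FPKM and each drug-treated library at most 466. *Gpc3* was lower in each MLN0128 tumor (at most 1.77 FPKM) than in any vehicle tumor (at least 7.14), but everolimus tumors overlapped vehicle. *H19* and *Igf2* overlapped between vehicle and MLN0128, and *Igf2* was higher with everolimus (71.2 to 94.5 against 50.5 to 57 FPKM). In the order normal liver, vehicle, MLN0128, everolimus, the macrophage list summed to 184 to 222, 56.5 to 88.9, 23.3 to 33.0 and 39.8 to 115 FPKM, and the cholangiocyte list to 1.5 to 2.01, 17 to 52.5, 0.743 to 3.55 and 0.937 to 4.28. Endothelial and stellate lists summed to 20.4 to 26.6 and 55.3 to 79.8 FPKM in normal liver against 8.58 to 14.3 and 12.6 to 31.0 in tumors, although single markers went against their list's sum (*Col1a1* 0.480 to 1.35 FPKM in normal liver and 8.82 to 23.0 in tumors, *Cd68* 4.8 to 5.75 and 5.37 to 36.8), and lymphocyte markers stayed under 2.36 FPKM throughout. The part of these differences in the results was not tested, and in whole tissue fewer cells of a type and less RNA per cell cannot be told apart. MLN0128 replicates 1 and 2 held *Xist* RNA (191 and 155 FPKM) and 0 reads on 4 Y-linked genes, unlike all 10 remaining libraries, which had the opposite pattern, and MLN0128 comparisons therefore also joined tissue of unlike X and Y content.

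*Eef1a1* was the most abundant member and *Eef2* the next in every group. *Eef1a1*, which encodes the main form of eEF1A, was measured at 2400, 2880 and 2830 FPKM in normal liver, then 2440, 2990 and 2550 in the vehicle group. The MLN0128 tumors had 3190, 3310 and 2760 FPKM and the everolimus tumors 3210, 3050 and 3290. It took 49.6% to 54.8% of the summed FPKM of the 52 factors in normal liver and 36.8% to 41.7% in tumors. *Eef2*, the translocation factor, had 617, 907 and 625 FPKM in normal liver, and by the mean over all libraries *Eif5a* and *Eef1b2* followed. The lowest mean levels were those of *Eef1akmt3*, *Eef1a2* and *Eif5a2*, each under 1 FPKM. Together the 52 factors held 0.620% to 0.760% of the summed FPKM of a normal liver and 1.92% to 2.84% of that of a tumor.

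Most of the factors had higher mRNA levels in vehicle-treated tumors than in normal liver. Of the 52, 38 were called higher (73.1%) and 2 lower (3.85%) by limma's moderated test at a Benjamini-Hochberg adjusted p under 0.05, where 36.0% of all tested genes were called higher and 33.0% lower. Their median log2 fold change was 0.71, against 0.06 over all tested genes, and 47 of the 52 were positive. Against a 1.5-fold change (limma's treat), 18 were higher (15.9% of all genes) and 0 lower (16.9% of all genes), and no factor was lower at an unadjusted treat p under 0.05. When the FPKM sums of all libraries were made equal, all 52 were called higher, as were 67.0% of all genes with 11.7% lower, and the medians became 1.82 for the factors and 1.00 for all genes.

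**Figure D1:**
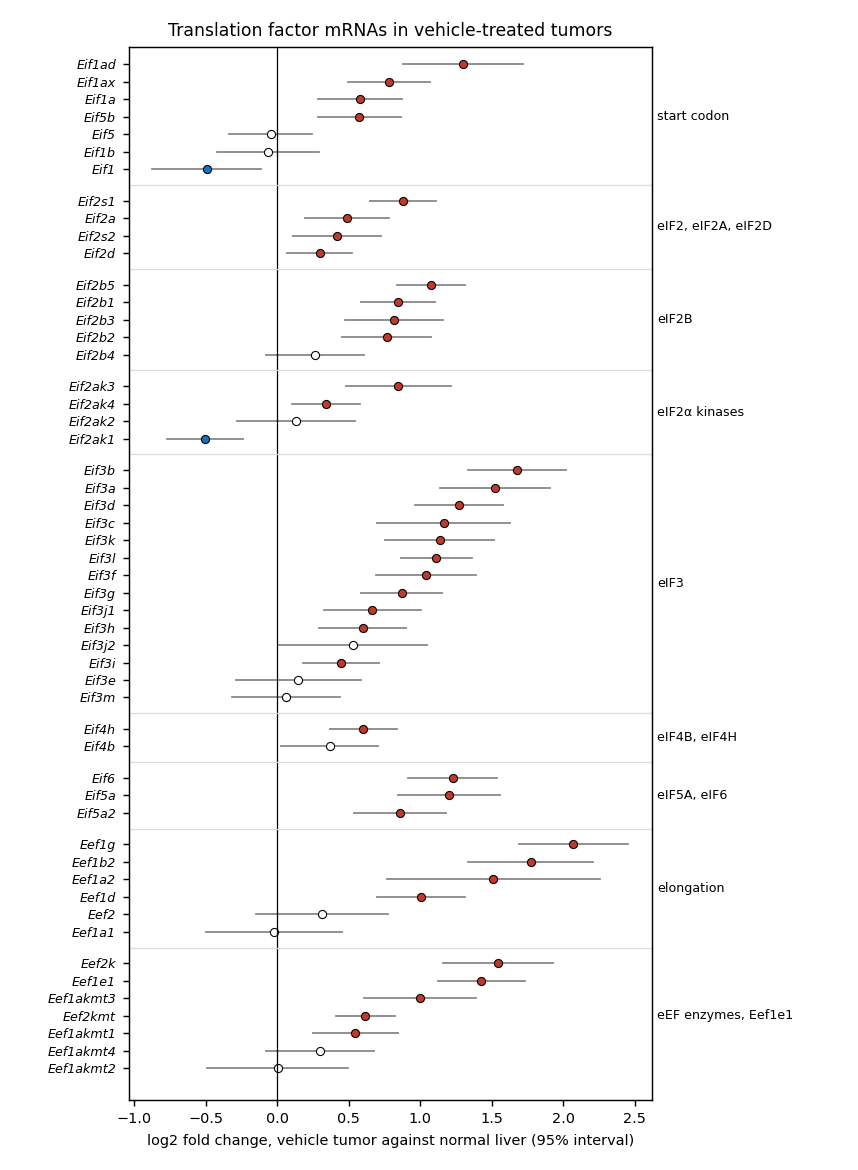
Log2 fold change of each of the 52 factors in vehicle-treated tumors against normal liver (x axis, with 95% intervals), grouped by role on the right. Red points were called higher (38), blue points lower (2) and open points were not called. *Eef1g*, *Eef1b2* and *Eif3b* lie farthest to the right and *Eif1* and *Eif2ak1* to the left of 0.

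All 3 eEF1B subunit genes were higher in vehicle-treated tumors, where 36.0% of all tested genes were. Gene positions are those of GENCODE M21 on GRCm38, and the genes given are protein-coding. *Eef1g* (chr19:8967041-8978479, plus strand), the γ subunit of this exchange factor, went from 86.3, 104 and 70.1 FPKM in normal liver to 341, 409 and 344 with vehicle (log2 fold change 2.07, SE 0.175, adjusted p = 1.09e-06 by limma). *Eef1b2* (chr1:63176825-63180486, plus strand), the catalytic β subunit, went from 128, 136 and 111 FPKM to 426, 500 and 367 (1.77, SE 0.199, adjusted p = 9.57e-06 by limma). *Eef1d* was also called higher, by 1.00 on the log2 scale, whereas *Eef1a1*, their substrate, differed by -0.02 (95% interval -0.50 to 0.45, adjusted p = 0.928) and its groups overlapped. In all 4 elongation factors called in tumors the vehicle libraries lay above all normal livers, which a call with 3 libraries per group makes likely. The share of all genes so separated was not counted.

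A ratio of FPKM within a library is free of the scaling between libraries. *Eef1g* stood at 0.0248 to 0.0361 of the *Eef1a1* level in normal liver and at 0.135 to 0.140 in vehicle-treated tumors. *Eef1b2* stood at 0.0392 to 0.0533 of *Eef1a1* in normal liver and at 0.144 to 0.175 with vehicle. With either drug the ratios were 0.117 to 0.143 for *Eef1g* and 0.126 to 0.169 for *Eef1b2*, all above normal liver.

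The second eEF1A gene, *Eef1a2*, which in adults is mainly used in muscle and nerve, had 0 reads in all 3 normal livers, where 3 reads would have given up to 0.138 FPKM. With vehicle it stood at 1.72, 0.660 and 4.12 FPKM, from 77, 29 and 200 reads. The vehicle mean was at least 15.7-fold higher than the level of 3 reads in a single normal liver library. The fitted value (log2 fold change 1.51, SE 0.341, adjusted p = 0.00191 by limma) depends on the pseudocount and is not a bound. In the mean of the vehicle libraries *Eef1a2* stood at 2.17 FPKM, against 2660 for *Eef1a1*. *Eef2* did not pass the test in tumors, with 821, 1000 and 821 FPKM under vehicle and a log2 difference of 0.32 (95% interval -0.15 to 0.78, adjusted p = 0.202).

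Of the 14 eIF3 genes, 11 were called higher and 0 lower in vehicle-treated tumors, where 36.0% of all tested genes were higher and 33.0% lower. The median log2 fold change of the 14 was 0.95. *Eif3b* (chr5:140419328-140443360, plus strand), a core scaffold subunit, rose from 41.7, 49.8 and 32.3 FPKM to 123, 143 and 132 (log2 fold change 1.68, SE 0.156, adjusted p = 2.22e-06 by limma). *Eif3a*, the largest subunit and its partner in the core, rose from 33.9, 52.2 and 34.1 FPKM to 104, 129 and 112 (1.52, SE 0.177, adjusted p = 1.26e-05). For both genes the lowest vehicle library was at or above the level of 104 FPKM and the highest normal liver at 52.2. At the other end, *Eif3m* had 62.8, 53.1 and 61.2 FPKM in normal liver against 66.2, 68.0 and 51.4 with vehicle, and *Eif3e* and *Eif3j2* were the other uncalled subunits. The subunits of one complex thus ranged from a log2 difference of 0.06 to one of 1.68.

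Among the factors of start codon selection and subunit joining, 4 of 7 were called higher and 1 lower, beside 36.0% and 33.0% of all tested genes. *Eif1ad*, an eIF1A-domain protein, rose from 13.7, 16.4 and 9.86 FPKM to 29.9, 39.4 and 32.2 with vehicle (log2 fold change 1.30, SE 0.193, adjusted p = 8.93e-05 by limma). The paralogs *Eif1a* and X-linked *Eif1ax*, which encode near-identical eIF1A proteins, both rose. *Eif1a* went from 44.7, 55.4 and 56.9 FPKM to 75.0, 89.3 and 71.5, and *Eif1ax* from 13.4, 13.5 and 12.5 to 22.2, 27.3 and 20.8, with log2 fold changes of 0.58 and 0.78. *Eif1*, the gatekeeper of start codon choice, went the other way, from 217, 262 and 211 FPKM to 156, 196 and 140 (log2 fold change -0.49, SE 0.174, adjusted p = 0.0242). Its groups did not overlap, but the call was lost without normal liver replicate 2, vehicle replicate 1 or vehicle replicate 3. *Eif5* and *Eif1b* were not called, with log2 differences of -0.05 and -0.07.

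All 4 genes for eIF2 subunits and the alternative initiator tRNA factors were called higher, beside 36.0% of all tested genes. *Eif2s1*, which encodes the eIF2α subunit that the stress kinases phosphorylate, rose from 21.8, 21.0 and 21.2 FPKM to 39.5, 42.3 and 38.5 (log2 fold change 0.88, SE 0.105, adjusted p = 1.53e-05 by limma). *Eif2d* rose least, from 6.44, 6.73 and 6.16 FPKM to 8.46, 8.32 and 7.63 (0.30, SE 0.104, adjusted p = 0.0242). The call of *Eif2d* was lost without normal liver replicates 1 or 3 or vehicle replicates 1 or 2, and that of *Eif2s2* (0.42) without normal liver replicates 1 or 3 or vehicle replicate 2.

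Of the 5 eIF2B subunits 4 were higher, beside 36.0% of all tested genes. *Eif2b5*, the catalytic ε subunit, rose from 20.9, 23.1 and 19.1 FPKM to 44.0, 45.9 and 46.1 (log2 fold change 1.08, SE 0.109, adjusted p = 4.27e-06 by limma). *Eif2b4*, the δ subunit, had 15.3, 20.1 and 13.2 FPKM in normal liver against 21.5, 17.8 and 18.9 with vehicle, and was not called.

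The 4 eIF2α kinases split. *Eif2ak3* (PERK), which senses stress in the endoplasmic reticulum, rose from 4.60, 6.03 and 4.42 FPKM to 9.08, 9.99 and 10.2 (log2 fold change 0.85, SE 0.167, adjusted p = 0.000750 by limma). *Eif2ak4* (GCN2), the sensor of amino acid shortage, rose from 2.55, 2.29 and 2.04 FPKM to 2.96, 3.12 and 3.39 (0.34, SE 0.109, adjusted p = 0.0156), a call lost without normal liver replicate 3 or vehicle replicate 3. *Eif2ak1* (HRI), the heme-regulated kinase, fell from 9.62, 10.4 and 7.49 FPKM to 6.21, 5.99 and 6.11 (-0.51, SE 0.121, adjusted p = 0.00276). *Eif2ak2* (PKR, chr17:78852564-78882573, minus strand), which responds to double-stranded RNA, overlapped between the groups at 7.80, 4.74 and 5.45 against 6.95, 5.28 and 7.58 FPKM. With the FPKM sums made equal the fitted values of *Eif2ak1* and *Eif1* turned positive, to 0.58 and 0.70, both still below the median of 1.00 over all genes. Within a library, the *Eif2ak1* to *Eif2ak4* ratio was 3.67 to 4.54 in normal liver and 1.80 to 2.10 with vehicle.

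All 3 genes of eIF5A and eIF6 were higher, beside 36.0% of all tested genes. *Eif6*, which keeps the ribosomal subunits apart, rose from 27.4, 31.7 and 24.7 FPKM to 65.1, 69.3 and 64.9 (log2 fold change 1.23, SE 0.143, adjusted p = 1.31e-05 by limma). *Eif5a*, the hypusine-bearing factor that helps stalled ribosomes, rose from 291, 270 and 242 FPKM to 601, 685 and 561 (1.2, SE 0.163, adjusted p = 4.46e-05). Its paralog *Eif5a2* rose from 0.111, 0.0722 and 0.191 FPKM, or 6, 4 and 10 reads, to 0.863, 1.31 and 0.956, and so stayed far below *Eif5a* in every library. Of the helicase cofactors, *Eif4h* rose from 55.3, 56.4 and 46.8 FPKM to 78.6, 85.4 and 77.4 (0.60, SE 0.108, adjusted p = 0.000373). *Eif4b* had 87.3, 121 and 104 FPKM in normal liver against 127, 144 and 130 with vehicle, and just missed the threshold (0.37, SE 0.155, adjusted p = 0.0521, past the threshold in 8 of 23 alternatives).

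Of the 7 genes for enzymes that modify elongation factors and the synthetase-complex protein *Eef1e1*, 5 were higher, beside 36.0% of all tested genes. *Eef2k*, the kinase that inactivates eEF2, rose from 3.61, 2.30 and 1.97 FPKM to 8.38, 11.9 and 8.27 (log2 fold change 1.54, SE 0.176, adjusted p = 1.10e-05 by limma). *Eef1akmt2*, a lysine methyltransferase of eEF1A, showed the smallest difference, with 4.78, 2.78 and 6.08 against 4.89, 5.24 and 3.24 FPKM. The value of *Eef1akmt3* rested on 1, 3 and 1 reads in normal liver.

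**Figure D2:**
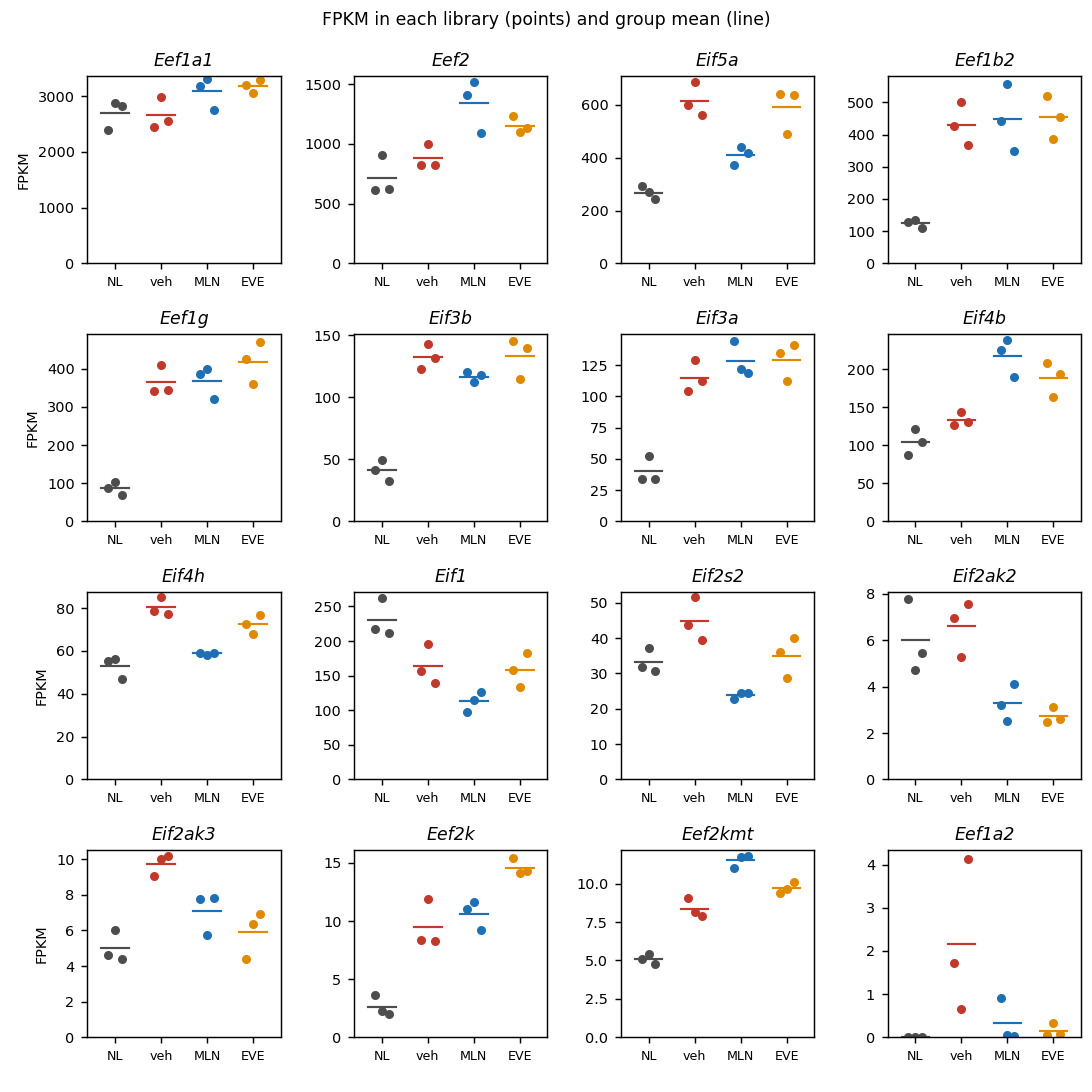
FPKM of 16 factors in each library (points) with the group mean (line), in normal liver (NL), vehicle (veh), MLN0128 (MLN) and everolimus (EVE), each n = 3, with every y axis starting at 0. *Eef1a1* overlaps between normal liver and vehicle while *Eef1b2* and *Eef1g* are higher in all tumors, *Eif2s2* and *Eif4h* are lowest among the tumors with MLN0128, and *Eif2ak2* is lower with both drugs.

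With MLN0128 fewer of the factors changed, in both directions, and none passed the test against a 1.5-fold change. Against vehicle, 4 of 52 were called higher (7.69%) and 6 lower (11.5%), where 14.9% of all tested genes were higher and 17.1% lower. The median log2 fold change was 0.02 for the factors and -0.01 for all genes. By treat, 0 were higher and 0 lower, against 0.479% and 1.65% of all genes, and at an unadjusted treat p under 0.05 the counts were 0 and 1. With the FPKM sums made equal, 11 factors were higher and 2 lower, with 24.6% of all genes higher and 8.81% lower and an all-gene median of 0.19. Leaving out normal liver replicate 1, vehicle replicate 1, vehicle replicate 3 or MLN0128 replicate 1 reduced the higher count to 2. Without MLN0128 replicates 1 and 2 together a single library was left in the arm, too few to tell which calls depend on that pair. In that library the differences of *Eef2* and *Eif3k* from vehicle were 0.31 and 0.23. That of *Eif3j2*, which was not called with all 3 libraries, was -1.02.

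Of the higher factors, *Eif4b* (chr15:102073773-102097173, plus strand), the RNA-binding partner of the eIF4A helicase and a substrate of S6 kinase, had the clearest rise. It was at 225, 238 and 189 FPKM with MLN0128, all above the 127, 144 and 130 with vehicle (log2 fold change 0.69, SE 0.155, adjusted p = 0.00617 by limma). *Eef2kmt*, the methyltransferase of eEF2, was at 11.0, 11.7 and 11.8 FPKM against 9.04, 8.15 and 7.87 with vehicle and 5.12, 5.45 and 4.76 in normal liver (0.42, SE 0.0941, adjusted p = 0.00618). Both calls held with each single library left out. In MLN0128 replicate 3 alone, a single library, the differences from vehicle were 0.50 for *Eif4b* and 0.45 for *Eef2kmt*. *Eef2* was at 1410, 1520 and 1090 FPKM, above all vehicle libraries (0.60, SE 0.211, adjusted p = 0.0490), but 9 of the 12 single libraries, at least 1 in every group, each took the call away when left out, with adjusted p up to 0.141. *Eif3k*, an outer eIF3 subunit, was at 92.4, 90.1 and 67.1 FPKM against 54.1, 67.7 and 50.9 (0.52, SE 0.174, adjusted p = 0.0398), and at 26.4, 27.6 and 22.6 in normal liver. Its groups overlapped by 1 library, and the call was lost without normal liver replicate 1, vehicle replicates 1 or 3 or MLN0128 replicates 1 or 2 (adjusted p up to 0.140).

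The fall with the smallest adjusted p under MLN0128 was that of *Eif2s2* (chr2:154871410-154892935, minus strand), the β subunit of eIF2. It was at 22.9, 24.5 and 24.4 FPKM against 43.6, 51.5 and 39.5 with vehicle, also below the 31.9, 37.2 and 30.7 of normal liver (log2 fold change -0.87, SE 0.141, adjusted p = 0.00114 by limma). *Eif2s1*, the α subunit of the same complex, was at 34.8, 36.9 and 36.3 FPKM with MLN0128 and was not called (-0.15, 95% interval -0.38 to 0.08). The *Eif2s2* to *Eif2s1* ratio was 0.658 to 0.672 under MLN0128, 0.855 to 0.935 under everolimus, 1.03 to 1.22 under vehicle and 1.45 to 1.77 in normal liver, without overlap between the 4 groups. The *Eif2s2* call held with each single library left out. In MLN0128 replicate 3 alone, without the pair that held *Xist* RNA, the difference of *Eif2s2* from vehicle was -0.84.

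*Eif4h*, which stimulates the same helicase as eIF4B, fell to 59.0, 58.3 and 59.2 FPKM (log2 fold change -0.44, SE 0.108, adjusted p = 0.00927 by limma) while *Eif4b* rose. Within a library, *Eif4b* was 3.19 to 4.08 times *Eif4h* with MLN0128 and 1.62 to 1.69 times with vehicle. *Eif5a* fell to 373, 442 and 418 FPKM from 601, 685 and 561 (-0.58, SE 0.163, adjusted p = 0.0186), still above normal liver, and the call was lost without vehicle replicate 2 or MLN0128 replicate 1 (adjusted p up to 0.0796). *Eif5a2* was at 1.48, 0.887 and 1.66 FPKM and was not called. *Eif1* fell to 97.8, 115 and 127 FPKM, below every vehicle library (-0.52, SE 0.174, adjusted p = 0.0385), and 6 single libraries each took the call away when left out (normal liver replicate 1, vehicle replicates 1 and 2, MLN0128 replicates 1 and 2, everolimus replicate 1). With the FPKM sums made equal, *Eif1*, *Eif4h*, *Eif5a* and *Eif2ak2* kept a negative sign and were not called. In MLN0128 replicate 3 alone the differences from vehicle were -0.35 for *Eif1*, -0.44 for *Eif4h*, -0.55 for *Eif5a* and -0.56 for *Eif2ak2*, each from a single library.

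*Eif2ak2* was at 3.23, 2.54 and 4.13 FPKM with MLN0128 (log2 fold change -0.83, SE 0.188, adjusted p = 0.00668 by limma), below every vehicle library. The other kinases were not called, with *Eif2ak3* at 7.76, 5.75 and 7.83 FPKM, *Eif2ak4* at 4.60, 4.03 and 3.59 and *Eif2ak1* at 6.79, 5.98 and 5.53. *Eef2k* was at 11.0, 11.6 and 9.20 FPKM (0.15, 95% interval -0.23 to 0.54). *Eef1a2* was at 0.912, 0.0450 and 0.0401 FPKM, the last 2 values from 2 reads each (-1.16, SE 0.341, adjusted p = 0.0230), and its highest library overlapped the vehicle range. That call was lost without vehicle replicates 1 or 3 or MLN0128 replicates 2 or 3 (adjusted p up to 0.0759).

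Everolimus moved still fewer. Against vehicle 0 of 52 factors were called higher and 3 lower (5.77%), where 3.78% of all tested genes were higher and 6.05% lower, so the lower share was close to that of all genes. At an unadjusted p under 0.05, 4 were higher and 5 lower, and limma's voom on recovered reads called 1 higher. By treat the counts were 0 and 0, against 0.0347% and 0.570% of all genes, with 0 and 2 at an unadjusted treat p under 0.05. The median log2 fold change was 0.06 for the factors and 0.03 for all genes. The lower count became 1 without vehicle replicate 1, vehicle replicate 3 or everolimus replicate 1, and the higher count became 1 without normal liver replicate 1, vehicle replicate 2, MLN0128 replicate 2 or everolimus replicate 2.

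*Eif2ak2* was at 2.47, 3.12 and 2.61 FPKM with everolimus, below every vehicle library (log2 fold change -1.02, SE 0.188, adjusted p = 0.00722 by limma), a call that held with each single library left out. *Eif2ak3* was at 4.40, 6.38 and 6.91 FPKM, below the vehicle range of 9.08 to 10.2 (-0.66, SE 0.167, adjusted p = 0.0311). The *Eif2ak3* call was lost without any 1 vehicle library or without everolimus replicate 1 (adjusted p up to 0.123). *Eif2ak4* at 3.29, 3.23 and 3.48 FPKM and *Eif2ak1* at 6.42, 6.16 and 6.67 were not called. *Eef1a2* was at 0.0508, 0.333 and 0.0770 FPKM, from 2, 21 and 4 reads (-1.31, SE 0.341, adjusted p = 0.0343), a call lost without normal liver replicate 1, vehicle replicates 1 or 3 or everolimus replicates 1 or 3 (adjusted p up to 0.117).

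Without passing the test, several factors lay above all vehicle libraries with everolimus and others lay below them. How many of all genes were separated in this way was not counted. *Eef2k* was at 15.4, 14.1 and 14.3 FPKM against 8.38, 11.9 and 8.27 (log2 difference 0.59, 95% interval 0.20 to 0.97, adjusted p = 0.0571 by limma, past the threshold in 3 of 23 alternatives). *Eif4b* was at 208, 163 and 193 FPKM (0.48, adjusted p = 0.0694), *Eif3k* at 99.3, 76.3 and 69.8 (0.49, adjusted p = 0.0934) and *Eef2* at 1230, 1100 and 1130 (0.39, adjusted p = 0.258). Below all vehicle libraries, also without a call, lay *Eif3j2* (-0.78, adjusted p = 0.0582 by limma), *Eif6* (-0.24) and *Eif4h* (-0.15). *Eif5a* at 642, 491 and 637 FPKM and *Eif1* at 158, 133 and 183 overlapped with vehicle.

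**Figure D3:**
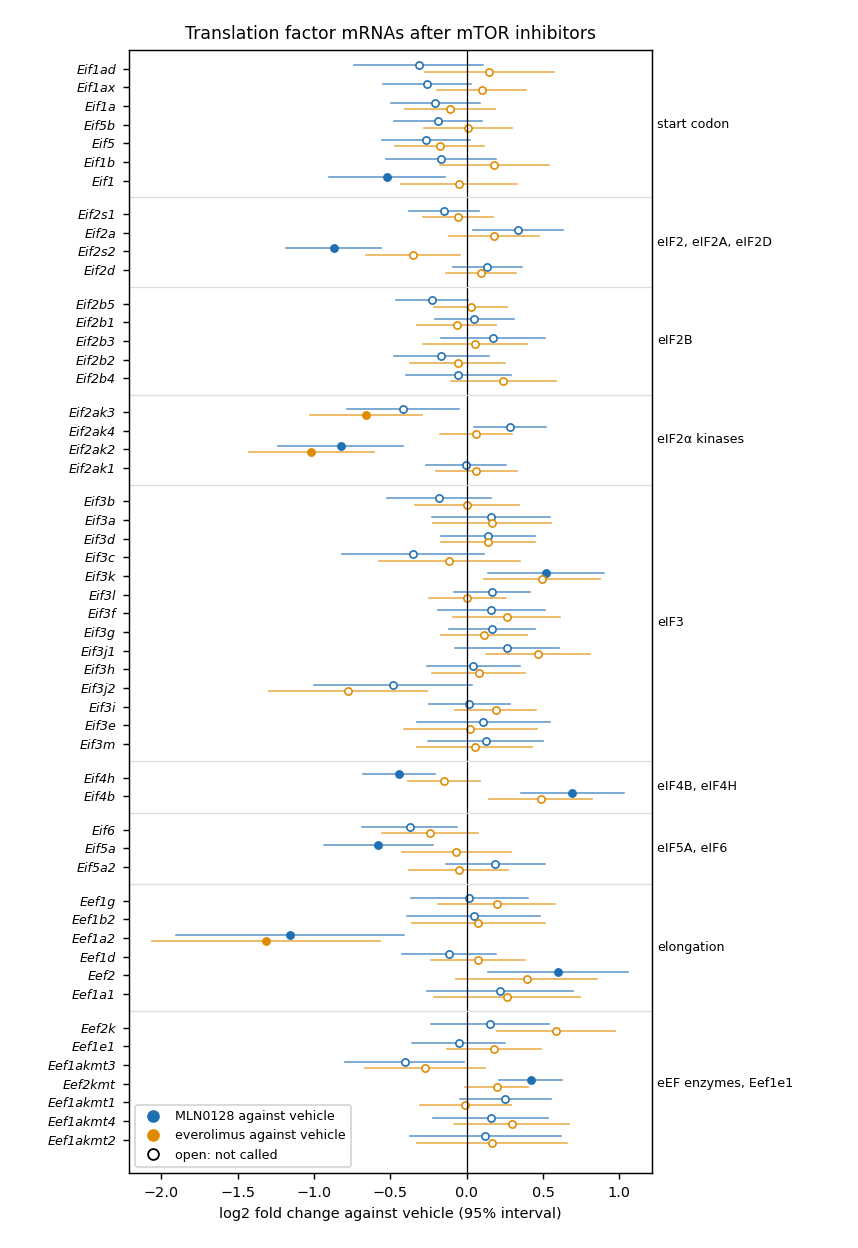
Log2 fold change of each factor against vehicle with MLN0128 (blue) and everolimus (orange), with 95% intervals and filled points for called values. Filled points are few, with 10 called for MLN0128 and 3 for everolimus. Both sets share the 3 vehicle libraries.

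The direct comparison of the drugs called 1 factor. *Eif2s2* was lower with MLN0128 than with everolimus, at 22.9, 24.5 and 24.4 against 36.2, 28.8 and 40 FPKM (log2 fold change -0.52, SE 0.141, adjusted p = 0.0422 by limma). Without overlap between the groups, the call was nevertheless lost when any 1 of 8 libraries was left out (normal liver replicate 1, vehicle replicates 1 and 3, MLN0128 replicates 1 to 3, everolimus replicates 1 and 3), with adjusted p up to 0.168. Over all factors 0 were higher and 1 lower (1.92%), where 3.99% of tested genes were higher and 5.54% lower, and 1 was higher and 8 lower at an unadjusted p under 0.05. The voom fit called 0 higher and 1 lower. By treat the counts were 0 and 0, against 0.00695% and 0.0347% of all genes, and 0 and 0 at an unadjusted treat p under 0.05. With the FPKM sums made equal, 2 were higher and 0 lower, with 8.72% of all genes higher and 1.36% lower and an all-gene median of 0.18.

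*Eif5a* came next, at 373 to 442 FPKM with MLN0128 against 491 to 642 with everolimus (log2 difference -0.51, 95% interval -0.87 to -0.16, adjusted p = 0.0698 by limma, past the threshold in 2 of 23 alternatives). For the 7 genes grouped under start codon selection and subunit joining all fitted differences were negative, from -0.47 for *Eif1* to -0.09 for *Eif5*. None was called, and 19 of all 52 factors and 6625 of the 14397 tested genes were positive. For X-linked *Eif1ax* the MLN0128 libraries stood at 19.8, 21.4 and 16.8 FPKM, the first 2 being the pair with *Xist* RNA, against 26.6, 21.9 and 26.7 with everolimus (-0.36, adjusted p = 0.106). *Eif1a* was at 69.4, 66.3 and 67.5 FPKM against 79.3, 63.9 and 75.2. *Eef1g*, *Eef1b2*, *Eif3b* and *Eif3a*, which were among the largest rises in vehicle-treated tumors, stayed above normal liver with either drug. Drug-treated tumors were not tested against normal liver. *Eef1a1*, the most abundant factor, overlapped, with 2760 FPKM in MLN0128 replicate 3 against 2400 to 2880 in normal liver. *Eef1g* had 386, 399 and 322 FPKM under MLN0128 and 425, 361 and 470 under everolimus, and *Eef1b2* 441, 558 and 349 and then 521, 387 and 454. *Eif3b* had 120, 112 and 118 FPKM under MLN0128 and 145, 115 and 140 under everolimus, and *Eif3a* 144, 122 and 119 and then 135, 112 and 141. None of *Eef1g*, *Eef1b2*, *Eif3b* and *Eif3a* was called in any of the 3 comparisons among tumors, and each of their drug libraries lay above all normal livers. The share of all genes so placed was not counted. *Eif1ad* had 28.6, 21.8 and 30.9 FPKM under MLN0128 and 44.2, 33.8 and 34.9 under everolimus, and *Eif6* 48.5, 43.6 and 62.8 and then 51.9, 56.0 and 60.6, all above normal liver and without a call. *Eif2b5*, the catalytic eIF2B subunit, had 39.2, 35.4 and 41.4 FPKM and then 46.7, 42.3 and 49.7.

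**Figure D4:**
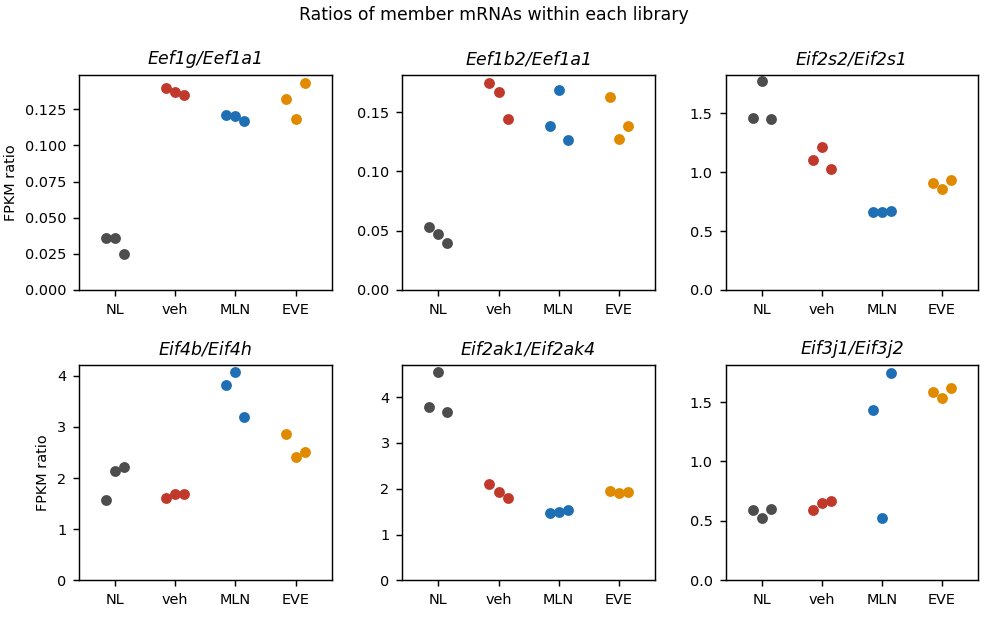
FPKM ratios of pairs of factors within each library (points, n = 3 per group), in normal liver (NL), vehicle (veh), MLN0128 (MLN) and everolimus (EVE), on axes that start at 0. *Eef1g* to *Eef1a1* is 0.0248 to 0.0361 in normal liver and 0.117 to 0.143 in tumors, *Eif2s2* to *Eif2s1* separates all 4 groups, and *Eif3j1* to *Eif3j2* places MLN0128 replicate 2 with the vehicle libraries.

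The 9 factors listed as TOP mRNAs (*Eef1a1*, *Eef1b2*, *Eef1d*, *Eef1g*, *Eef2*, *Eif3e*, *Eif3f*, *Eif3h* and *Eif4b*) were read beside the other 43. With MLN0128 2 were called higher and 0 lower, where 14.9% and 17.1% of all genes were, and the median log2 fold change was 0.11, against -0.06 for the other 43 factors. With everolimus 0 were called in either direction, where 3.78% of all genes were higher and 6.05% lower, and the median was 0.20, against 0.03 for the other 43. These are levels of mRNA, and the translation of TOP mRNAs was not measured.

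The other genes of the pathway, 40 in 5 lists, were read in the same fit. In vehicle-treated tumors 24 were higher and 6 lower than in normal liver, where 36.0% of all genes were higher and 33.0% lower. Of 10 genes of termination, recycling and rescue, 5 were higher and 1 lower, with *Etf1*, the stop codon release factor, at 1.06 and *Mcts1*, a reinitiation factor, at -0.97 on the log2 scale. Of 8 poly(A)-binding and helicase genes, 4 were higher and 3 lower, with *Pabpc4* at 2.79 and *Pabpc1* at 1.94 against *Paip2b*, an inhibitor of poly(A)-binding protein, at -1.69. Of 8 enzymes that make hypusine on eIF5A or diphthamide on eEF2, 6 were higher and 0 lower, led by *Dph2* at 1.92 and *Dph6* at 0.97. Of 6 mitochondrial factors, 2 were higher (*Tsfm* 0.79, *Tufm* 0.67) and 2 lower (*Mtif3* -0.58, *Mtif2* -0.55), shares close to those of all genes. With the FPKM sums made equal, *Mcts1*, *Mtif3* and *Mtif2* turned positive, to 0.19, 0.44 and 0.59, while the all-gene median was 1.00.

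The fifth list held eIF2α phosphatase cofactors and targets of the integrated stress response, which lies downstream of the eIF2α kinases. In vehicle-treated tumors 7 of 8 were higher than in normal liver, where 36.0% of all tested genes were. They were led by *Trib3*, a pseudokinase (log2 fold change 2.89), and *Sesn2*, an mTORC1 inhibitor (2.71). With MLN0128 7 of the 8 were lower than with vehicle, where 17.1% of all tested genes were. *Chac1*, a glutathione-degrading enzyme, went from a mean of 27.1 to 0.486 FPKM (-4.23, SE 0.224, adjusted p = 1.99e-06 by limma) and *Trib3* from 39.9 to 2.37 (-3.58, SE 0.382, adjusted p = 0.000135). With everolimus only *Ddit3* (CHOP) passed the test, from 13.6 to 5.95 FPKM (-1.11, adjusted p = 0.00585 by limma), where 6.05% of all genes were lower. Directly against everolimus 4 of the 8 were lower with MLN0128, where 5.54% of all genes were. These were *Atf4*, *Chac1*, *Ddit3* and *Trib3*, and 0 of the 4 kinases and 5 eIF2B subunits passed the same direct test.

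In the other 4 lists, of 32 genes, 4 were higher and 4 lower with MLN0128, no larger a share than the 14.9% and 17.1% of all genes. *Gspt2*, a termination GTPase (log2 fold change 1.18), *Dph7* (1.02), *Dph1* (0.57) and *Pabpc4* (0.46) were higher, and *Denr*, a reinitiation factor (-0.47), *Eefsec*, the selenocysteine elongation factor (-0.42), *Gfm1*, a mitochondrial elongation factor (-0.41), and *Dph3* (-0.36) were lower. With everolimus *Pabpc4* (0.60) and *Gspt2* (0.49) were higher. The calls of *Dph1*, *Dph3*, *Eefsec*, *Gfm1* and *Pabpc4* with MLN0128, and of *Pabpc4* and *Gspt2* with everolimus, were each lost with at least 2 of the single libraries left out.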

How the data were processed

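Total RNA of 12 samples of mouse liver or tumor was sequenced. The deposited values are FPKM that the authors made from reads per Ensembl gene, rounded to 3 significant digits, with symbols from an annotation package. The submitters' processing notes name FastQC 0.11.7 and the build GRCm38, and the aligner is not given in the sources used here. Libraries were grouped by their labels. The sources used here differ on the treatment length, with 3 weeks in the labels and 3 days in the results text of the paper.

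After addition of 1 FPKM and log2 transformation, genes that reached 0.5 FPKM in 3 or more of the 12 libraries were fitted together in limma 3.58.1 (R 4.3.3) with an intensity trend. Fold changes are on that scale, which understates changes of low genes. A call is a Benjamini-Hochberg adjusted p under 0.05 over all 14397 genes. The members, role groups and lists were chosen with earlier results of these data known. Values in each library are given for the 5 called factors with the largest change each way per comparison, the 4 most abundant, the extremes of each role group in tumors, paralog pairs, the eIF2α kinases and *Eef2k*, and of pathway lists for the 2 largest called changes each way. Some genes are also named outside this rule, after their values were seen. Nothing in the labels ties each library to a separate animal, so p-values measure the spread between these samples, which may be technical.

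Whole reads were recovered from FPKM and exon lengths (GENCODE M21, GRCm38) for depth and for voom, with 98.2% to 98.8% of values under 20 reads within 0.1 of a whole number. The 95% intervals come from the limma fit and cover the spread between samples, whereas read floors cover counting error only. The test was checked on simulated data. Alternatives covered the pseudocount, filter, scaling, threshold, libraries in the fit, trend, replicate block, voom and each library left out. Tables were handled with pandas 2.3.3 and plots with matplotlib 3.10.9. The sequence of 1 further start among the listed TOP mRNAs is not reported here.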

Additional observations from a re-analysis of the deposited data

Results flagged for a closer look

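The direct test of the drugs called *Eif2s2* and 6 other pathway genes, whose levels differed between MLN0128 and everolimus. *Eif2s2*, the eIF2β subunit, was lower with MLN0128 by a log2 difference of -0.52 (adjusted p = 0.0422 by limma), a call lost with any 1 of 8 libraries left out. *Chac1* and *Trib3*, targets of the integrated stress response, were lower by -3.55 (adjusted p = 2.43e-05) and -2.67 (adjusted p = 0.00639). *Atf4*, the transcription factor of that response, and its target *Ddit3* were lower by -1.65 (adjusted p = 0.00177) and -0.82 (adjusted p = 0.0266), the latter call being lost without MLN0128 replicates 1 or 2 or everolimus replicate 3. *Gfm1* was lower by -0.48 (adjusted p = 0.0421), a call lost with any 1 of 10 libraries left out, and *Gspt2* was higher by 0.70 (adjusted p = 0.0147), a call lost without MLN0128 replicate 1 or everolimus replicate 3. The X and Y content of MLN0128 replicates 1 and 2 differed from that of the everolimus libraries, and without these 2 replicates 1 library was left in the arm. From that library alone the differences from everolimus were -0.49 for *Eif2s2*, -3.57 for *Chac1*, -2.62 for *Trib3* and -1.78 for *Atf4*. For *Ddit3*, *Gfm1* and *Gspt2* they were -0.81, -0.51 and 0.73. With groups of 3, single libraries were not tested as outliers.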

How the results depend on the processing

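The counts of the 52 factors moved both when the FPKM sums were made equal and by treat. With equal sums, in vehicle-treated tumors against normal liver all 52 were higher and 0 lower, and the signs of *Eif1b* (1.10), *Eif5* (1.14), *Eif2ak1* (0.58), *Eif1* (0.70), *Eef1a1* (1.18) and, among the other pathway genes, *Mcts1* (0.19), *Paip1* (0.073), *Mtif3* (0.44) and *Mtif2* (0.59) turned positive. The all-gene median rose to 1.00 under that scaling. For MLN0128 against vehicle it gave 11 higher and 2 lower, and for MLN0128 against everolimus 2 and 0. By treat the counts were 18 and 0 in tumors against normal liver, and 0 and 0 in the comparisons of MLN0128 with vehicle, everolimus with vehicle and the drugs with each other. With only the 2 groups compared in the fit, 2 were higher with MLN0128 and 0 were lower against everolimus. Without an intensity trend 2 were lower with MLN0128 than with everolimus, and voom called 1 higher with everolimus. Without MLN0128 replicates 1 and 2, 1 MLN0128 library was left and the spread came from the other groups. Counts of that setting therefore cannot be set beside the others. Leaving out each library in turn gave 35 to 40 higher and 1 to 2 lower in tumors against normal liver, 2 to 5 and 4 to 7 with MLN0128, 0 to 1 and 1 to 4 with everolimus, and 0 to 0 and 0 to 2 for MLN0128 against everolimus. The cause of these changes was not tested, and leaving a library out also lowers the number of samples.

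Labels number the replicates 1 to 3 in each group, but same-numbered libraries did not deviate together (1 of 18 correlations above 0.1, range -0.29 to 0.15). With a replicate block the factors called lower with everolimus were 1, those lower with MLN0128 than with everolimus 0, and the other pathway genes higher with everolimus 0. The counts in tumors against normal liver stayed at 38 and 2.

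For the other pathway genes, equal FPKM sums gave 37 higher and 1 lower in tumors, 12 and 6 with MLN0128, 1 higher with everolimus, and 2 and 3 for MLN0128 against everolimus. Treat gave 12 and 2, 1 and 4, 0 and 0, and 0 and 1 in the same order. With everolimus 1 was higher at a pseudocount of 0.1, without a filter, with a filter of 1 FPKM, with medians made equal, with 2 groups in the fit and by voom, and 0 were lower by voom, where *Ddit3* had no value. For MLN0128 against everolimus 0 were higher at a pseudocount of 0.1 and with 2 groups in the fit, and 2 with medians made equal and by voom. In the same comparison 2 were lower with 2 groups in the fit. Leaving out each library in turn gave 22 to 24 and 6 to 7 in tumors, 2 to 6 and 7 to 12 with MLN0128, 0 to 2 and 1 to 3 with everolimus, and 0 to 3 and 3 to 7 for MLN0128 against everolimus.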

Other observations

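*Eif3j1* and *Eif3j2*, near-identical genes for a loosely bound eIF3 subunit that helps to release the ribosome, showed a pattern by library that was noticed after their values were seen. Because of their likeness the authors' counting could split reads between them. *Eif3j1* stood at 9.37, 9.33 and 9.42 FPKM in normal liver, then 14.7, 17.6 and 14.2 in the vehicle group, with 22.4, 14.5 and 20.1 under MLN0128 and 21.1, 19.3 and 25.1 under everolimus. *Eif3j2* stood at 15.9, 17.9 and 15.8 FPKM in normal liver, then 25.0, 27.1 and 21.2 in the vehicle group, with 15.6, 27.6 and 11.5 under MLN0128 and 13.3, 12.6 and 15.5 under everolimus. The ratio of the former to the latter was 0.521 to 0.670 in normal liver, vehicle and MLN0128 replicate 2, and 1.44 to 1.75 in MLN0128 replicates 1 and 3 and the everolimus libraries. Their sum showed no such split, at 25.2 to 27.2 FPKM in normal liver and 31.6 to 44.7 in tumors.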
